A study of Mus musculus with 35 samples.

Results

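Loss of 1 copy of Mettl14 was compared with the wild-type state in cultured mouse neural progenitor cells (NPCs). The comparison takes the 6 RNA-seq libraries of the first RNA batch that carry these labels, out of 35 samples in the series: 3 wild-type (WT) and 3 Mettl14 heterozygous (Het) libraries, each from a separately numbered embryonic line. The members are every gene measured in these libraries. The 3 homozygous knockout (KO) libraries of the same batch entered the same model. The estimate of spread thus rests on more libraries and includes the spread among KO libraries. Per the labels' protocol, the targeted allele has loxP sites around exon 2 of Mettl14, was made in G4 embryonic stem cells, and was passed through chimeras crossed to c57 mice. Flpe removed the selection cassette, and EIIa-Cre mothers deleted the exon in the germ line, which gave Mettl14+/− animals that were intercrossed. This protocol describes a germ-line deletion, and no cell-type-specific Cre line is named in the library labels of the first batch. The library titles of that batch give only a line number and a genotype, so they do not state how each line was derived. The strain column of the labels holds only a line number, and ages in days are not given there.

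METTL14 is the RNA-binding partner of METTL3, and together they place N6-methyladenosine (m6A) on messenger RNA within a larger writer complex. Reader proteins bind m6A and change the splicing, translation or decay of the transcript. In the embryonic forebrain, neural progenitors divide to renew themselves or to give rise to neurons and glia, and the writer complex is known to act in that choice. A heterozygous animal keeps 1 intact allele, so this comparison asks how far the transcriptome of the progenitors differs when a single allele is deleted.

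The 6 libraries held 15900212 to 20046524 fragments assigned to loci, and the KO libraries 14087371 to 18936243. All 10 progenitor markers chosen for the cell type were measured. Vim ran from 3260 to 3550 CPM (fragment counts scaled to a common library total) in WT and from 3210 to 4080 in Het, Fabp7 from 1730 to 2070 and from 1980 to 2120, Nes from 1150 to 1230 and from 1050 to 1380, and Sox2 from 340 to 434 and from 364 to 422, so the groups overlapped at each of these 4 genes. In bulk RNA, fewer cells of a type and less RNA per cell cannot be told apart. The libraries did not divide by genotype along the leading axis of a multidimensional scaling of the 6 libraries, which held 39.4% of the variance. That axis set the 3 libraries with Xist, the noncoding RNA of the inactive X chromosome, apart from the 3 with Y-linked transcripts. Xist stood at 1640 and 1760 CPM in WT libraries 1 and 2 and at 1750 in Het library 2, and at 0.447 CPM or less in the other 3. The groups are not balanced for this, since 2 of 3 WT but 1 of 3 Het libraries expressed Xist. Without genes on X and Y, the leading axis held 30.8% of the variance, with the WT libraries from −0.62 to −0.20 and the Het libraries from −0.00 to 0.80. The WT and Het libraries thus did not overlap on that axis, and whether this exceeds chance with 3 libraries per group was not tested. The table numbers the libraries within each genotype, and these numbers could not be tied to the line numbers of the labels.

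**Figure D1:**
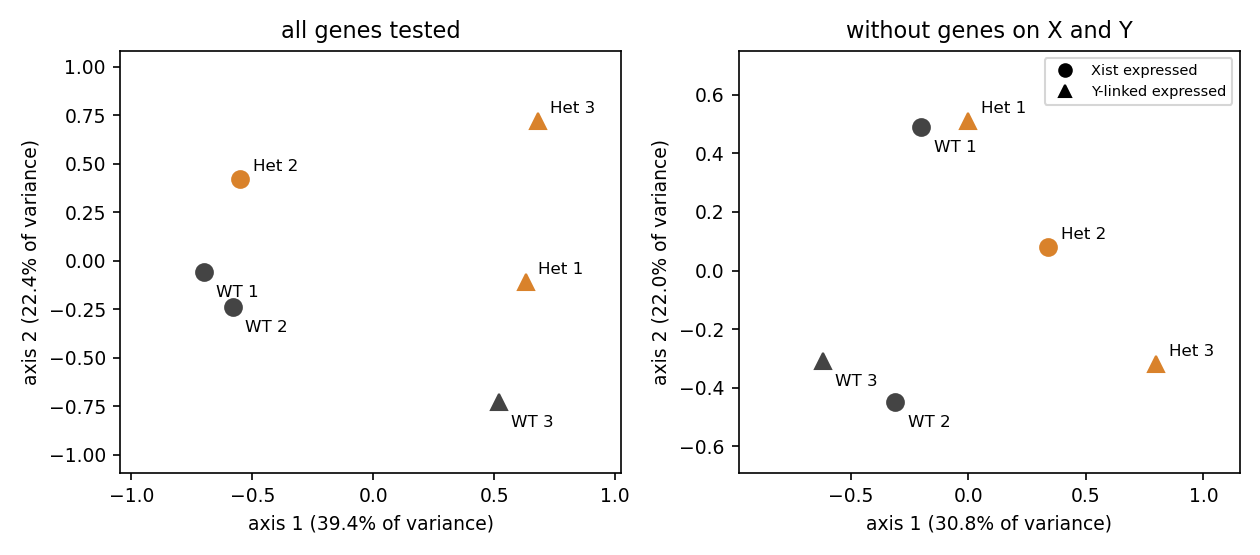
Multidimensional scaling of the 3 WT and 3 Het libraries with all genes tested (left) and without genes on the X and Y chromosomes (right), where axes are leading log2 fold changes with their share of variance. Circles express Xist and triangles Y-linked transcripts, and axis 1 of the left panel separates circles from triangles rather than Het (orange) from WT (grey). On axis 1 of the right panel the WT and Het libraries do not overlap, a separation that was not tested.

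Few genes passed the test between Het and WT progenitors. Of 13672 genes tested, 2 were called in Het against WT by edgeR's quasi-likelihood test at a Benjamini-Hochberg adjusted p below 0.05, which is 0.0146% of them. Both were higher in Het: Gad1, the enzyme that makes the transmitter GABA from glutamate, and S100a16, a small calcium-binding protein of the S100 family. No gene was called lower in this fit, and the next smallest adjusted p was 0.13. Fitted on the 6 Het and WT libraries alone, edgeR called 3 genes, these 2 and Gm3558, which was lower in Het (−3.22, edgeR adjusted p = 0.04996). Gm3558 stood at 3.01, 4.14 and 4.08 CPM in WT and at 0.112, 0.457 and 0.625 in Het. It belongs to a family of near-identical genes whose shared reads make its level uncertain, and its adjusted p was 0.36 in the fit that includes KO. At an unadjusted p below 0.05 there were 1173 genes (8.58%), 595 higher and 578 lower. The 3 Het libraries lay wholly above or wholly below the 3 WT libraries at 2026 genes (14.8%), 1014 above and 1012 below. In the same fit 9463 genes (69.2%) were called between KO and WT and 9301 (68%) between Het and KO, so the libraries made many calls in the other contrasts. The lines are separate, but the labels do not say whether each came from its own embryo, so p-values measure the spread between these libraries.

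The precision of the comparison was high for most genes and lower for many rare transcripts. The median standard error of the log2 fold change was 0.11, and the 95% interval lay within 2-fold either way for 12010 genes (87.8%) and within 1.5-fold for 9956 (72.8%). Among the 4558 genes of highest mean level, at 55.8 CPM or more, 98.9% had an interval within 2-fold and 95.7% within 1.5-fold. Among the 4558 of lowest mean level, at 13.2 CPM or less, the shares were 66.3% and 31.5%, so that for many of these genes a 2-fold difference was not excluded at this depth.

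**Figure D2:**
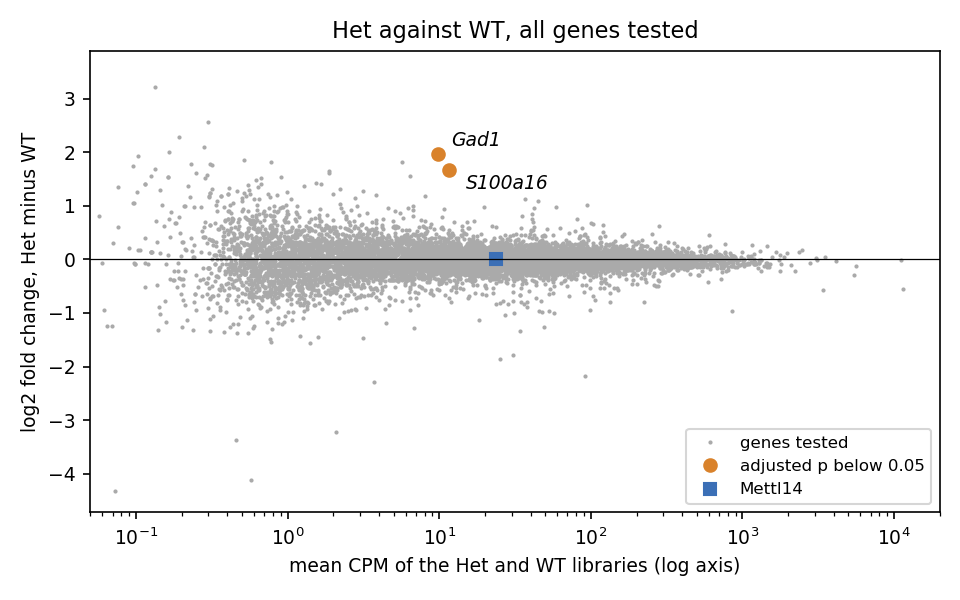
Log2 fold change of Het minus WT for each gene tested against the mean CPM of the 6 libraries on a log axis. Gad1 (1.96) and S100a16 (1.67), both in orange, are the 2 genes called, and Mettl14 (blue square) lies at 0.01.

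Mettl14 itself had overlapping totals in WT and Het. The locus (mm10, chr3:123367853-123385990, minus strand) stood at 23.3, 24.9 and 22.6 CPM in WT, at 24.1, 22.6 and 24.3 in Het, and at 22.4, 20 and 22.4 in KO. The log2 fold change was 0.01 (95% interval −0.18 to 0.19, edgeR adjusted p = 0.99). These values sum the whole locus and do not resolve the deleted exon, so they check neither the Het nor the KO label. The homozygous deletion likewise left the total near the WT level (log2 fold change −0.12 in KO, SE 0.084, edgeR adjusted p = 0.22).

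The rest of the methylation machinery was measured closely and none of it was called. Of 10 writer complex genes 9 were measured, all with intervals within 1.5-fold, and their log2 fold changes ran from −0.06 to 0.15 with a median of −0.00, as over all genes. Mettl3, the catalytic subunit, stood at 42.6, 40.4 and 42.4 CPM in WT and at 41.7, 41.1 and 40.9 in Het (−0.02, SE 0.076). Wtap, which holds the catalytic pair in nuclear speckles, was at −0.00 (SE 0.059), and Rbm15, an RNA-binding adaptor, at −0.06 (SE 0.074). In KO 7 of these 9 genes were called, against 69.2% of all genes tested, with 6 higher and 1, Mettl3, lower (−0.58). Of 13 readers and erasers none was called, and 12 had intervals within 1.5-fold. The exception was Igf2bp1, an RNA-binding reader linked to transcript stability, at 14.5, 24.1 and 23.8 CPM in WT and at 13.9, 13.0 and 13.4 in Het. All its Het values lay below the WT values, and the log2 fold change was −0.63 (SE 0.18, edgeR adjusted p = 0.51). The deposited FPKM do not follow the counts at this gene: they were 1.67, 2.89 and 2.81 in WT, 99, 1.59 and 1.62 in Het and 119, 0.645 and 0.666 in KO. Het library 1 and KO library 1 were high by FPKM but not by fragments, which were 232, 366 and 454 in WT and 249, 228 and 236 in Het, so the mean FPKM was higher in Het.

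Gad1 showed the larger of the 2 differences. It stood at 5.71, 3.55 and 2.88 CPM in WT, at 16.1, 14.5 and 16.4 in Het, and at 69.2, 92 and 83.9 in KO. The 3 genotypes did not overlap, with Het between WT and KO. Gad1 was 3.9-fold higher in Het than in WT (95% interval 2.79 to 5.44, log2 fold change 1.96, SE 0.21, edgeR adjusted p = 0.028). Counts behind these values were small, with 54 to 91 fragments per WT library and 253 to 289 per Het library. Per length, the level rose from 0.707 ± 0.21 FPKM (a level that takes both gene length and depth into account; SD, n = 3) to 3.19 ± 0.257. Het lay below KO, with a log2 fold change of Het minus KO of −2.38 (SE 0.18, edgeR adjusted p = 2.2e-06), a comparison that reuses the Het libraries. In the third RNA batch, from other WT and KO lines, Gad1 stood at 3.48 and 3.65 CPM in WT and at 86.3 and 84.8 in KO. The order was the same within both kinds of library. Among those with Xist, Het library 2 stood at 14.5 CPM against 5.71 and 3.55, and among those with Y-linked transcripts, 16.1 and 16.4 stood against 2.88. The call was lost when a Y-linked covariate was added (edgeR adjusted p = 0.13) and when any 1 library other than WT library 1 was left out (edgeR adjusted p from 0.081 to 0.28). An antisense locus on the opposite strand, Gad1os, overlaps the start of Gad1 by 1194 bases and had 2 WT fragments and 1 Het fragment in all.

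S100a16 gave a different order of genotypes. Its level was 5.46, 6.25 and 4.97 CPM in WT, 19.7, 16.2 and 17.2 in Het, and 6.11, 3.65 and 3.6 in KO. Every Het library lay above every WT and every KO library, while the WT and KO libraries overlapped. The gene was 3.19-fold higher in Het than in WT (95% interval 2.39 to 4.27, log2 fold change 1.67, SE 0.19, edgeR adjusted p = 0.028) and 1.97 higher on the log2 scale than in KO (SE 0.2, edgeR adjusted p = 5.2e-06). KO and WT differed by −0.30 (SE 0.21, adjusted p = 0.22). The WT lines of the third batch stood at 29.6 and 27.7 CPM and its KO lines at 10.1 and 13.1, so WT lines of that batch lay above the Het lines of the first, though the batches were normalised separately. Among libraries with Xist the Het value of 16.2 stood against 5.46 and 6.25, and among those with Y-linked transcripts 19.7 and 17.2 stood against 4.97. With the Y-linked covariate the edgeR adjusted p was 0.13, and leaving out any 1 library other than WT library 1 gave 0.081 to 0.24. None of the 6 other S100 genes measured in the cluster on chromosome 3 was called. S100a10 was at −0.01, S100a13 at 0.11, S100a11 at 0.26, S100a1 at 0.43, S100a6 at −0.18 and S100a4 at −0.32, with adjusted p of 0.75 or more for each.

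**Figure D3:**
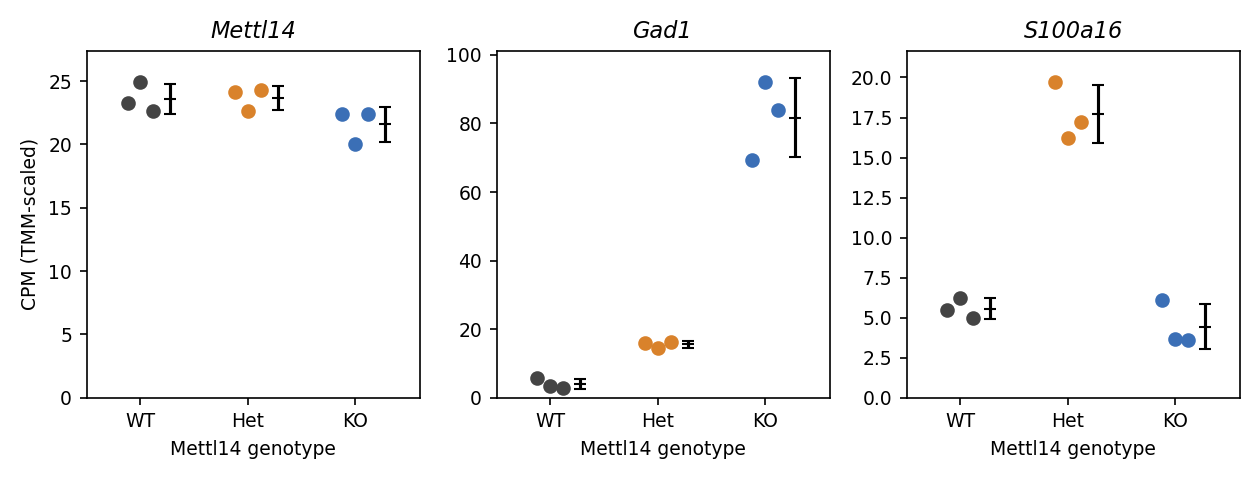
CPM of Mettl14, Gad1 and S100a16 in each library of the first batch (points) with the mean and SD of 3 libraries (black bars). Mettl14 overlaps between WT and Het, Gad1 is ordered WT, Het, KO without overlap, and S100a16 is high in Het alone.

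The promoters of the 2 called genes differ in base composition and are shown here as the 250 bases before the RefSeq start (GRCm38.p6, plus strand, from RefSeq), with every CG dinucleotide (CpG, the same on both strands) in capitals. Gad1 is read from chr2:70561879-70562128 and S100a16 from chr3:90540896-90541145.
Gad1: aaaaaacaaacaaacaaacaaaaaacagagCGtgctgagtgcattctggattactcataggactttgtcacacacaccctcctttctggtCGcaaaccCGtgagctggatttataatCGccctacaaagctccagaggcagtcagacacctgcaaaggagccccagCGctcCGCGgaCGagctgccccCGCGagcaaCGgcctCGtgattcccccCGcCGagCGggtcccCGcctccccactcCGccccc
S100a16: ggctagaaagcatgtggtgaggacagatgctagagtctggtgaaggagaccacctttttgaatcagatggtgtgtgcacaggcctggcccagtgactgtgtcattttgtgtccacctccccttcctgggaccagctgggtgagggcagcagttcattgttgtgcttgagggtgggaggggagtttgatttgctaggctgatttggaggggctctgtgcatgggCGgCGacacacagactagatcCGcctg
The Gad1 stretch holds 17 CpG, more than 76.5% of the 32851 promoters in the table, and they crowd towards the start site. The S100a16 stretch holds 3, more than 29% of promoters, against a median of 6. A second RefSeq start of S100a16, upstream at chr3:90537254, has 1.

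Histone marks were measured in the 2 WT lines of the third RNA batch, not in the WT lines compared here, and the m6A lists carry no line number. In those 2 WT lines the Gad1 start lay inside a wide domain of H3K27me3, the histone mark laid down by Polycomb complex 2 at silent genes. The domain spanned 13.9 kb in the first WT line (chr2:70558851-70572705, the authors' fold enrichment 8.59) and 11.6 kb in the second (chr2:70558839-70570417, fold 10.2). H3K27ac, a mark of active promoters and enhancers, was called near the start in only the first line, at a fold of 2.77. S100a16 had H3K27ac over its start in both lines (fold 5.65 and 4.76) and no H3K27me3 within 2000 bases. In RNA of these lines S100a16 stood at 29.6 and 27.7 CPM, above the 4.97 to 6.25 of the WT lines of the first batch, so the marks describe lines in which its level was higher, though the batches were normalised separately. Over all genes tested, 12.8% had H3K27me3 and 90.8% H3K27ac within 2000 bases of a start in both WT lines. Among the 4558 genes of lowest mean CPM, to which both called genes belong, the shares were 27.2% and 74.6%. For m6A, S100a16 had a region in its transcript in 3 of the 4 WT region lists (fold 3.27, 4.29 and 3.43) and Gad1 in none. A region in all 4 lists was found for 43.5% of genes tested, so neither called gene met that rule. The share depends on level, at 23.6% of those 4558 genes of lowest mean CPM and 55.4% of the 4558 of highest, and Gad1 was low in WT. No chromatin or m6A library of a heterozygous line was analysed here.

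Groups of genes known from progenitor biology were followed as lists, 37 of them with members measured. Across them 480 different genes were measured, 1 of which (Gad1) was called by edgeR and 2 (Gad1 and Aldh1l1) by DESeq2, and 51 (10.6%) had an unadjusted p below 0.05 against 8.58% of all genes.

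Cell cycle genes, which were lower in KO, were not called in Het. Of 25 genes of S phase and replication none reached an unadjusted p below 0.05 in the fit that includes KO. All 25 had intervals within 2-fold and 14 within 1.5-fold. The log2 fold change was negative for 24 of 25, against 6886 of all 13672 genes tested. The median was −0.12 in Het and −1.89 in KO, both against the same WT libraries. Pcna, the sliding clamp of DNA polymerase, stood at 436, 432 and 425 CPM in WT and at 431, 399 and 384 in Het (−0.09, SE 0.17). Of 19 genes of G2 and M phase none was at an unadjusted p below 0.05, with a median of −0.00 in Het and −1.21 in KO. Ccnd1, the D cyclin that drives exit from G1, stood at 1910, 1790 and 2020 CPM in WT, at 2090, 1490 and 1330 in Het and at 178, 138 and 172 in KO. Its WT and Het values overlapped (−0.22, SE 0.16), and Het libraries 2 and 3 were the low ones.

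Among cell identity genes edgeR called Gad1 alone. In the stem cell and radial glia list, 21 genes were measured and 3 were higher at an unadjusted p below 0.05, namely Hes5, Notch1 and Ednrb, and all 21 had intervals within 2-fold. Notch1, the receptor that holds progenitors undifferentiated, stood at 245, 255 and 266 CPM in WT, 272, 293 and 319 in Het and 495, 516 and 505 in KO, with a log2 fold change in Het of 0.21 (SE 0.063, edgeR adjusted p = 0.53). The 18 neuronal genes had a median of −0.03 and the 7 dorsal telencephalic genes 0.00, with none at an unadjusted p below 0.05. Of 12 proneural and intermediate progenitor genes, 3 were higher (Neurog2, Dll1 and Btg2) and 1 lower (Hes6) at that p, against 8.58% of all genes. The median of these 12 was 0.18, and none was called. In the GABAergic and ventral telencephalic list, 6 of 14 genes were measured and Gad1 alone was called. All 6 had a positive log2 fold change, against 49.6% of all genes tested. The values ran from 0.28 to 1.96 with a median of 0.44, and 2 had intervals within 2-fold. Members such as Gad2 and Dlx1 were near the detection limit. Gad2, the second GABA-making enzyme, stood at 1.13, 0.395 and 1.31 CPM in WT and at 1.67, 0.972 and 1.36 in Het (0.47, SE 0.39). Dlx1, a transcription factor of GABAergic precursors, was at 0.188, 0.329 and 0.471 CPM in WT and at 0.391, 0.572 and 0.511 in Het (0.53, SE 0.46). Dlx5, Dlx6 and Lhx8 had no fragment in any of the 6 libraries.

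Among 14 astrocyte genes 13 had a positive log2 fold change, against 49.6% of all genes tested, with a median of 0.36. None of the 14 was called by edgeR. Aldh1l1, a folate enzyme used as an astrocyte marker, stood at 250, 216 and 200 CPM in WT, 322, 330 and 376 in Het and 39.7, 52 and 44.8 in KO. The 3 genotypes did not overlap, and Het was the highest (0.63, SE 0.11, edgeR adjusted p = 0.34, DESeq2 adjusted p = 2.8e-04). Gfap, an intermediate filament of astrocytes, stood at 3.83, 4.67 and 1.47 CPM in WT and at 3.68, 8.86 and 16.2 in Het, so the groups overlapped and Het library 3 was the high one (1.56, SE 0.88). Aqp4, a water channel, followed the same order of libraries at 13.9, 17.2 and 9.01 CPM in WT and at 15.5, 26.0 and 36.9 in Het (0.98, SE 0.45).

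The integrated stress response list, genes of ATF4 and amino acid supply, held the most members at low unadjusted p on one side. Of 15 measured, 7 were lower and 0 higher at an unadjusted p below 0.05. Over all 13672 genes tested, 578 were lower and 595 higher at that p. The list median was −0.17, and none of the 15 was called. Whether its members move independently was not tested. Atf4, the transcription factor of this response, stood at 149, 145 and 149 CPM in WT and at 129, 123 and 104 in Het (−0.31, SE 0.074, edgeR adjusted p = 0.45). Asns, the asparagine synthetase that ATF4 drives, stood at 121, 113 and 108 CPM in WT, 98.8, 98.2 and 87.6 in Het and 22.8, 20.3 and 20.3 in KO (−0.26 in Het, SE 0.071, edgeR adjusted p = 0.51). At both genes every Het library lay below every WT library. The count of 7 was 4 without Het library 3, 4 without WT library 1 and 3 with limma on FPKM. Of 20 cholesterol synthesis genes 19 had a negative log2 fold change, against 6886 of all 13672 genes tested, with a median of −0.15. Of these 20 genes, 3 were at an unadjusted p below 0.05, against 8.58% of all genes, and all 20 had intervals within 1.5-fold. A list of hypoxia and glycolysis genes went the other way, with 18 of 19 positive and a median of 0.08. Hsd17b7, a sterol reductase of the pathway, was at −0.29 (SE 0.075, edgeR adjusted p = 0.48). Of 16 immediate early genes 3 were lower and 1 higher at an unadjusted p below 0.05, against 8.58% of all genes. Arc, a neuronal activity gene, stood at 39.8, 62.4 and 86.5 CPM in WT and at 37.5, 31.7 and 25.9 in Het (−0.99, SE 0.35). Fos, the founding member of its family, stood at 90.3, 71.2 and 71.3 CPM in WT and at 88.2, 143 and 140 in Het (0.67, SE 0.21), with overlapping groups.

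**Figure D4:**
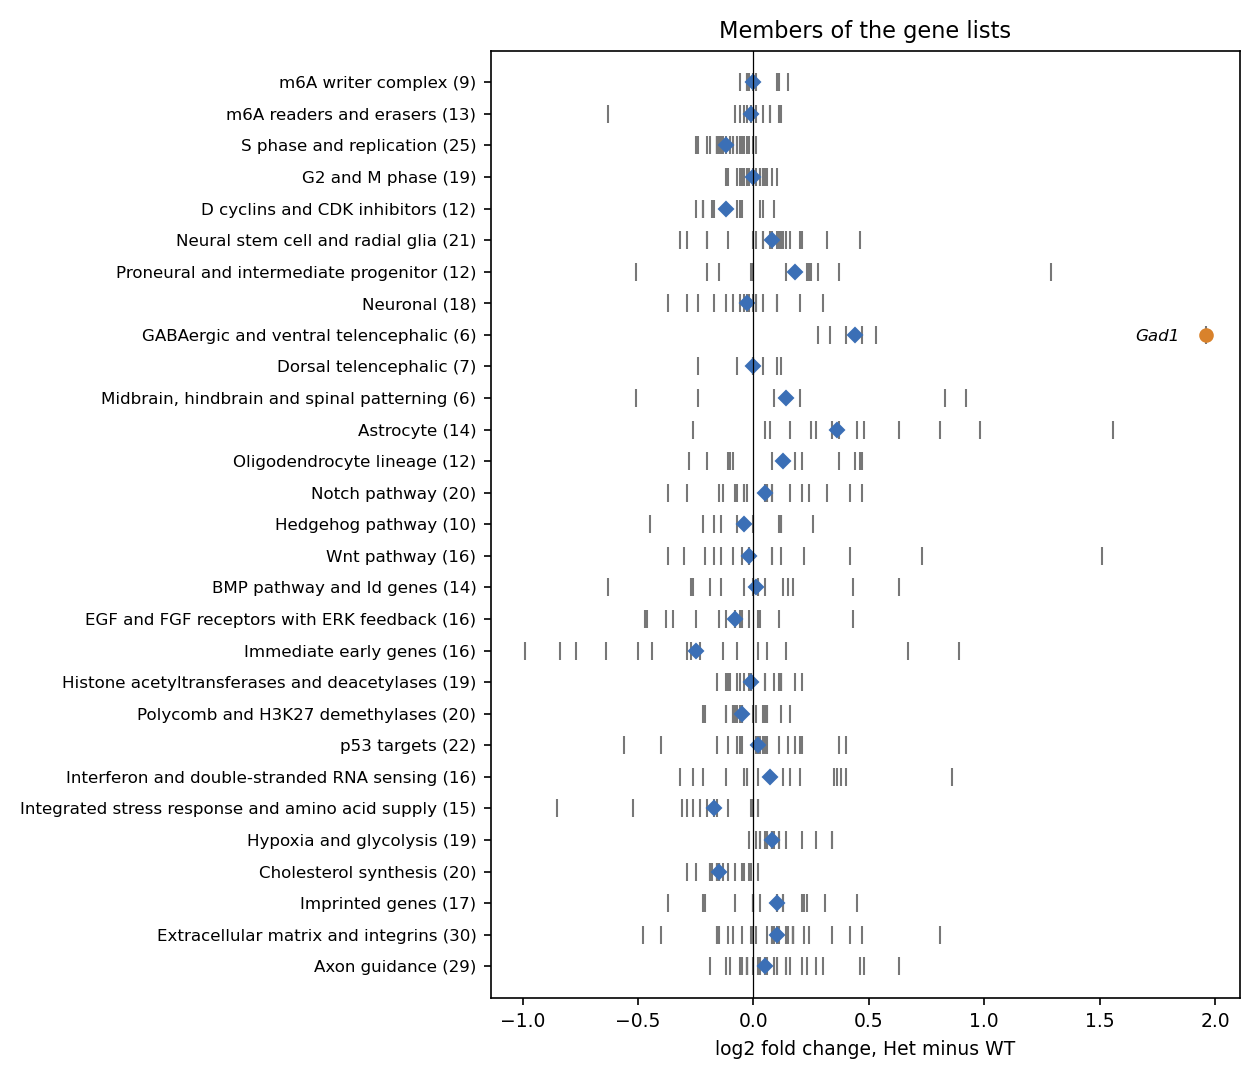
Log2 fold change of Het minus WT for each measured member (grey ticks) of the pathway and cell type lists with at least 6 members measured, whose number stands in brackets. Blue diamonds are list medians, which lie between −0.25 and 0.44, and the orange point is Gad1 at 1.96.

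Markers of other cell types were followed as summed levels. The 10 microglial markers summed to 1.63 to 1.91 CPM in WT and to 1.00 to 1.60 in Het, with Itgam, C1qb and C1qc at 0 in all 6 libraries. Every Het sum lay below every WT sum, but 9 of the 10 markers were below the low-count filter. The 1 marker measured, P2ry12, overlapped between the groups (−0.19, SE 0.3). The endothelial list summed to 2.57 to 3.7 CPM in WT and to 3.14 to 3.46 in Het, with Cdh5 at 0. The fibroblast and pericyte list summed to 9.22 to 10.7 CPM in WT and to 10.1 to 11.6 in Het, with Dcn at 0. Neural crest and Schwann markers summed to 29.5 to 37.8 and to 30 to 42.8 CPM, pluripotent markers to 8.42 to 10.7 and to 6.59 to 11.5, and erythroid markers to 4.08 to 5.14 and to 5.02 to 6.08. Choroid plexus and ependyma markers summed to 4.45 to 6.91 CPM in WT and to 6 to 13.3 in Het, with 2 of 8 past the low-count filter. One of these is Otx2, a homeobox factor also known from forebrain and midbrain patterning, which stood at 2.95, 4.73 and 6.13 CPM in WT, 11.6, 5.49 and 9.2 in Het and 0.474, 0.685 and 0.494 in KO. Its WT and Het values overlapped (0.92 in Het, SE 0.3, unadjusted p = 0.011, edgeR adjusted p = 0.55). The part of these cell types in the results was not tested. No Hox gene passed the low-count filter, and 17 of 19 were at 0 in all 6 libraries.

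The genes that differed in KO of the third RNA batch gave a reading of the Het libraries that shares no control sample with them. That batch called 4073 of 12835 genes (31.7%) between 2 KO and 2 WT lines, and 2133 genes higher and 1794 lower in KO were also tested in the first batch. Their median log2 fold change in Het against WT was 0.009 for the higher genes and −0.006 for the lower genes, against −0.001 over all genes tested. Of the higher genes 52.4% had a positive log2 fold change in Het, of the lower genes 48.0%, and of all genes 49.6%. By library, the mean offset of the higher genes from the WT mean ran from −0.018 to 0.020 in WT, from −0.025 to 0.031 in Het and from 0.939 to 0.962 in KO of the first batch. The lower genes ran from −0.021 to 0.011 in WT, from −0.045 to 0.016 in Het and from −1.2 to −1.141 in KO. Within the Het group, library 3 was farthest from the WT mean on the lower list. Of the higher and lower genes 92.2% and 92.0% had Het intervals within 2-fold, against 87.8% of all genes. At an unadjusted p below 0.05 were 11.3% and 8.7%, against 8.58% of all genes. With the lists kept to changes of at least 2-fold in the third batch, 13% and 11.4% were at that p, and 82.7% and 80.9% had intervals within 2-fold. In each list 1 gene was called higher in Het, Gad1 among the genes higher in KO of the third batch and S100a16 among the lower.

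**Figure D5:**
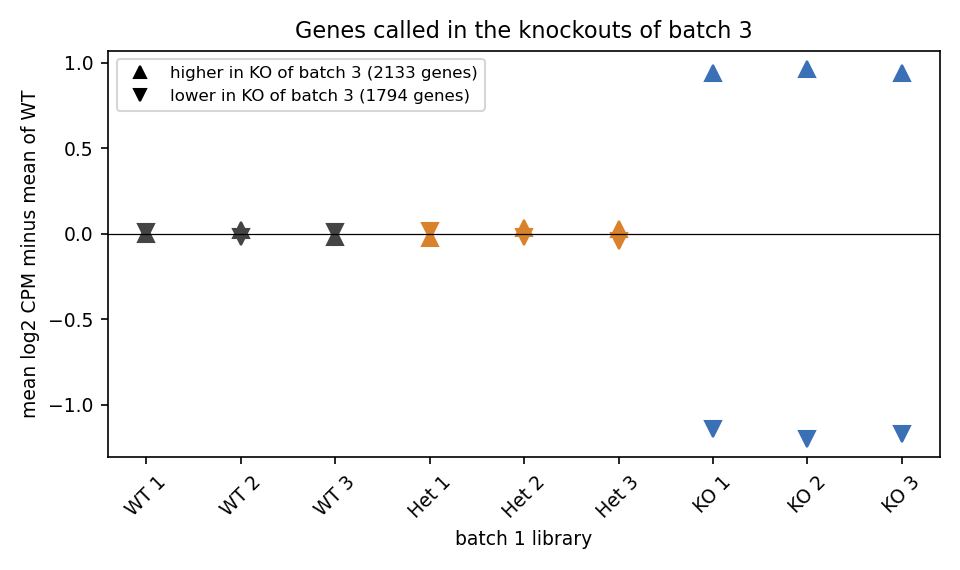
Mean log2 CPM of the genes called higher (triangles up, 2133) or lower (triangles down, 1794) in KO of the third batch, in each library of the first batch, as the difference from the mean of the 3 WT libraries. WT and Het libraries lie between −0.045 and 0.031, and KO libraries near 0.95 and −1.17.

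The region around the targeted gene showed no cluster of differences. Of 80 genes tested within 10 Mb (megabases) of Mettl14 on chromosome 3, none was called by edgeR and 4 (5%) had an unadjusted p below 0.05, namely Neurog2, Palmd, Rpl34 and Synpo2. Neurog2, a proneural transcription factor, was near the detection limit, at 0.188, 0.526 and 0.262 CPM in WT and at 0.614, 0.629 and 1.14 in Het (1.29, SE 0.61, edgeR adjusted p = 0.58). S100a16 lies on the same chromosome, 32.8 Mb away.

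DESeq2 called 26 genes (0.19%) in the same libraries, 14 higher and 12 lower, and both Gad1 (adjusted p = 3.1e-18) and S100a16 (6.3e-12) were among them. The following were picked after their values were seen. Rasl11a, a small GTPase-like protein, stood at 37.3, 46 and 41.2 CPM in WT, 26.7, 28.1 and 24.2 in Het and 5.06, 5.42 and 5.51 in KO, without overlap (−0.66 in Het, SE 0.096, edgeR adjusted p = 0.13, DESeq2 9.3e-05). In the third batch its WT lines stood at 20 and 9.6 CPM and its KO lines at 10.6 and 15.4, which overlapped (−0.19 in KO, SE 0.34, edgeR adjusted p = 0.71). Ctso, a lysosomal cysteine protease, stood at 11.5, 13.1 and 10.4 CPM in WT and at 17.6, 18.3 and 20.3 in Het (0.69, SE 0.11, edgeR adjusted p = 0.23), and its locus overlaps that of Tdo2. Mmp14, a membrane-bound matrix protease, stood at 72.1, 80.7 and 73.1 CPM in WT and at 98.7, 102 and 110 in Het (0.46, SE 0.092, edgeR adjusted p = 0.44). None of these 3 genes was called by edgeR in the 9 libraries or in the 6 Het and WT libraries alone, and without WT library 1 edgeR called Rasl11a (−0.72, adjusted p = 0.032).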

How the data were processed

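RNA was isolated with TRIZOL, treated with DNase, and polyA-selected with RiboMinus depletion, per the labels' protocols. The authors deposited one table per RNA batch with estimated counts of fragments per locus and FPKM values, and a transcript annotation in mm10. TopHat, Cufflinks and Cuffdiff are named per the submitters' processing notes, which also list MACS2 for peaks, whose deposited lists give each peak's fold enrichment (a ratio). The members and gene lists were chosen with earlier results of these data known.

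Estimated counts (5.31% of values not whole) were rounded, loci of one symbol were summed, and 8847 of 32572 loci without a known gene name (1.03 to 1.29% of WT and Het fragments) and 2 loci marked HIDATA, one of them Malat1, were left out. Another 429 loci join more than 1 gene. edgeR 4.0.16 (R 4.3.3) fitted genotype over 9 libraries with TMM scaling (factors 0.972 to 1.04), filterByExpr and the robust quasi-likelihood F test, and p-values were adjusted over all genes tested. CPM are TMM-scaled. Counting did not state strand. The fit was tested on simulated data in which KO carried no change of its own. Alternatives used DESeq2 1.42.0, limma 3.58.1 on log2(FPKM + 0.1 or 1), other filters, scalings and loci, a Y-linked covariate, and each library left out. Genes named by rule were Mettl14, called genes whose libraries do not overlap with a mean of at least 1 CPM in the higher group, and from each list its called members or the 2 with the highest level. Others were chosen after their values were seen. Peaks overlap an exon or lie within 2000 bases of a start by at least 1 base. The table deposited for the second batch holds the values of the first and was not used.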

Additional observations from a re-analysis of the deposited data

How the results depend on the processing

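No paired analysis was possible because the labels give the Het and WT libraries no shared replicate numbers. Log2 fold changes of Gad1 and S100a16 kept their sign in all 20 alternatives, from 1.30 to 2.29 and from 1.59 to 1.76, with adjusted p from 3.1e-18 to 0.28 and from 6.3e-12 to 0.24. DESeq2 called 26 genes and 2 list members, and edgeR on the 6 Het and WT libraries alone 3 genes, 1 of them lower. With the Y-linked covariate edgeR called 0 genes (1142 at an unadjusted p below 0.05) and 0 list members, with Gad1 at 1.94 and S100a16 at 1.72 (adjusted p = 0.13 for both). With that covariate in the 6 libraries alone, an alternative chosen after seeing the data, 1 gene was called, S100a16, and 0 list members, with Gad1 at 2.03 (adjusted p = 0.19). Leaving out 1 library gave 0 to 17 genes and 0 to 1 list members, with Gad1 from 1.75 to 2.29 and S100a16 from 1.59 to 1.76. Only the fit without WT library 1 made any call, 17 genes with 4 higher, and the cause was not tested. Genes at an unadjusted p below 0.05 ranged from 607 without Het library 3 to 1985 without Het library 1. The medians of the third-batch KO lists ranged from 0.002 to 0.047 and from −0.028 to 0.014, and limma on FPKM gave 0.047 and 0.039 for the higher list. A region in at least 1 of the 4 m6A lists counted 1 called gene, S100a16, against 0 for all 4. Het against KO kept the call for both genes in all 18 fits run. Depth limits the comparison below about 13.2 CPM, where 66.3% of genes had intervals within 2-fold.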

Other observations

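One stretch of the genome away from Mettl14 had a high share of its genes at an unadjusted p below 0.05. Of 38 genes tested on the first 20 Mb (megabases) of chromosome 14, 19 (50%) had an unadjusted p below 0.05, 5 higher and 14 lower, against 8.46% of the other 13634 genes. None of the 38 was called by edgeR in the 9 libraries, DESeq2 called 7 of them, and edgeR on the 6 Het and WT libraries alone called Gm3558 (−3.22, edgeR adjusted p = 0.04996). Among 139 bins of 20 Mb with at least 20 genes this was the highest share, and the next was 20.8%. The stretch was chosen after seeing the values. It holds a family of near-identical genes numbered with Gm, whose shared reads make single members uncertain, but without Gm- and LOC-numbered genes 12 of 31 (38.7%) remained at that p. The count of 19 ranged from 15 to 20 over the alternatives.

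Gm3002, a member of that family, stood at 96.5, 164 and 188 CPM in WT, at 27.3, 34.1 and 38.3 in Het and at 25.2, 76.6 and 79.2 in KO, so that KO library 1 lay with Het and the other KO libraries between the groups (−2.17 in Het, SE 0.45, edgeR adjusted p = 0.47). In the third batch it stood at 67.8 and 23.8 CPM in the WT lines. Synpr, a synaptic vesicle protein, stood at 3.39, 2.89 and 1.41 CPM in WT, at 6.92, 8.98 and 10.7 in Het and at 4.16, 2.11 and 2.26 in KO (1.81 in Het, SE 0.33, edgeR adjusted p = 0.36). Its WT and KO libraries overlapped and its Het libraries lay above both. Thrb, a thyroid hormone receptor, stood at 6.96, 3.81 and 4.03 CPM in WT and at 9.93, 12.6 and 11.2 in Het (1.19, SE 0.29, edgeR adjusted p = 0.47).

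Rn45s, the ribosomal RNA precursor locus that depletion should largely remove, took 14600, 13100 and 13100 CPM in WT, 8370, 9490 and 9920 in Het and 11300, 11000 and 15000 in KO. The Het libraries lay below all others (−0.55 against WT, SE 0.12, edgeR adjusted p = 0.44), and leaving the locus out changed neither call.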
